A study of Mus musculus with 4 samples.

Results

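Open chromatin was compared between thymocytes at the DN3 stage and naive CD4 T cells, each from littermate controls of Scd1-deficient mice. The members were all 76814 regions listed for control DN3 cells and all 46576 regions listed for control naive cells on chromosomes 1 to 19 and X, which is 123390 of the 251124 regions of the 4 libraries in the study. A region was assigned to one list only when no region of the other list overlapped it by 1 bp or more. Control DN3 cells came from the thymus by magnetic removal of lineage-positive and CD4+ cells, followed by flow sorting of CD8-, CD44-, CD25+ cells. Control naive CD4 cells came from the spleen by a magnetic bead kit, and neither cell type was treated. The control titles carry the code HZ, whose meaning is not given, and the number of animals behind a library is not stated. DN3 and naive CD4 cells of mice deficient in Scd1, a desaturase of fatty acid synthesis, had 127734 regions. These libraries are set beside the control pair as a second pair that shares no library with it. Each group has 1 library, so no test was run, every difference describes these libraries, and cell type, tissue and purification cannot be told apart.

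ATAC-seq marks DNA that the Tn5 transposase can reach, chiefly promoters and enhancers. At the DN3 stage the Rag recombinase assembles the T cell receptor beta gene, the product is tested as part of the pre-T cell receptor, and Notch signals from the thymic stroma sustain the cell. Naive CD4 cells have also rearranged the alpha gene, have passed selection, and circulate in a resting state through lymph nodes. Region strength is given here as the number of fragments at the summit, recovered from the authors' peak statistics, or as fold, the authors' ratio of that number to the local background. A gene's start region is the region within 1 kb of its annotated start, or of either end where the reference gives no strand. A region that is not listed was not called, which does not show that the DNA is closed.

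Promoters of 3 DN3 genes and 3 naive genes whose start region stood in one list only are shown first, since their presence or absence is the plainest difference between the cells. Ptcra encodes the pre-T cell receptor alpha chain, Rag1 a subunit of the recombinase, and Dntt the polymerase that adds bases at receptor junctions. Il2 encodes interleukin 2, Tnfrsf4 the costimulatory receptor OX40, and Ms4a4b a membrane protein of T cells. Each sequence runs 5′ to 3′ along the gene, from 250 bases before the start to 50 bases after it, as given by RefSeq for GRCm38, which is mm10. The positions are chr17:46763663-46763962 (minus strand) for Ptcra, chr2:101649483-101649782 (minus) for Rag1, chr19:41029025-41029324 (plus) for Dntt, chr3:37125905-37126204 (minus) for Il2, chr4:156013445-156013744 (plus) for Tnfrsf4 and chr19:11443308-11443607 (plus) for Ms4a4b. Capitals mark letters of 9 short words found on either strand: CAGCTG (an E-box form bound by E proteins), CACCTG (a further E-box form), TGTGGT (the Runx core), CTTTGA (the Tcf/Lef core), GGAAGT (an Ets form), TGGGAA (the core shared by the Notch cofactor Rbpj and Ikaros), GGGCGG (the Sp/Klf form), AGATAA (the Gata form) and TTTGCAT (an octamer part).
Ptcra: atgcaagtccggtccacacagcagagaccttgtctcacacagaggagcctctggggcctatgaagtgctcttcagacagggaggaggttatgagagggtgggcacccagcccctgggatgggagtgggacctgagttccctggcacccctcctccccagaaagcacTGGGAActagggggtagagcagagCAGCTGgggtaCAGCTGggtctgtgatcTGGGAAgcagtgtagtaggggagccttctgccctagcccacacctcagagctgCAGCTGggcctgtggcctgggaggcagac
Rag1: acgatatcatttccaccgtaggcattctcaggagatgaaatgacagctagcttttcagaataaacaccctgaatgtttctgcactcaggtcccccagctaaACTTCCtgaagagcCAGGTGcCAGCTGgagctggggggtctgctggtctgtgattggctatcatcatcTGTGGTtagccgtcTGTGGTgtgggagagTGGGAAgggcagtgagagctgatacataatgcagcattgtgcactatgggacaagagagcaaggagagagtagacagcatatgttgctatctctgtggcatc
Dntt: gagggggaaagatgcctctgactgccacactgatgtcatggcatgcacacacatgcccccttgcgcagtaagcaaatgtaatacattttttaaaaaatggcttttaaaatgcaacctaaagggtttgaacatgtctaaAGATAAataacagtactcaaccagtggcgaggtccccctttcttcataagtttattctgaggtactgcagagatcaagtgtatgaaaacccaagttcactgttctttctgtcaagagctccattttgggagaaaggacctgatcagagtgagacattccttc
Il2: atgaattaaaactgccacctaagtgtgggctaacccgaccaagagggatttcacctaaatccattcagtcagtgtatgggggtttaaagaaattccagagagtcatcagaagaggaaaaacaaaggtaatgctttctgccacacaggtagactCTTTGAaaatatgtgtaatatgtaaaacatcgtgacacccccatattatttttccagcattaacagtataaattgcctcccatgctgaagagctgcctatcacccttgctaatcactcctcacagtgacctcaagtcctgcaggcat
Tnfrsf4: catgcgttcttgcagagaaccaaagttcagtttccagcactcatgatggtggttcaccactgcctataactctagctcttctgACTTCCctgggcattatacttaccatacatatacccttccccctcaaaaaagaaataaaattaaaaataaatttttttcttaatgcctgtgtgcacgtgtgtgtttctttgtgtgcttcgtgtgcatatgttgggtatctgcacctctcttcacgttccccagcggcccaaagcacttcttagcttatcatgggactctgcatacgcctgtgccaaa
Ms4a4b: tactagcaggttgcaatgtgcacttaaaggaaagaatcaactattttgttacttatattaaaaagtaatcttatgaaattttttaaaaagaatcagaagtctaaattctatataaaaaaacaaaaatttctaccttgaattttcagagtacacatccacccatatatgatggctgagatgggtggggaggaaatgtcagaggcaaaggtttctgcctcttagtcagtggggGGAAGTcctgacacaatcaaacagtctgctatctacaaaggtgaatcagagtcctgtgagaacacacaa
The Ptcra promoter held 3 matches to CAGCTG and 2 to TGGGAA. The Rag1 promoter held 2 matches to TGTGGT, 1 to CAGCTG, 1 to CACCTG, 1 to GGAAGT and 1 to TGGGAA. Dntt held 1 AGATAA, Il2 1 CTTTGA, and Tnfrsf4 and Ms4a4b 1 GGAAGT each. Over all 21045 promoters of the table, 15.7% held CAGCTG, 24.2% TGGGAA, 14.7% TGTGGT, 19.9% CACCTG, 14.4% CTTTGA, 25.0% GGAAGT, 46.7% GGGCGG, 9.68% AGATAA and 4.27% TTTGCAT, so single matches are common. A match describes letters and is not a bound site.

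Ptcra, Rag1, Rag2 and Dntt had a start region in both DN3 libraries and in neither naive library. The Ptcra start had 216 fragments at the summit in control DN3 cells and 221 in Scd1-deficient DN3 cells, and a second region 4.39 kb upstream (chr17:46768037-46768371) had 108 and 103. The Rag1 start had 114 and 139 fragments, the Rag2 start 133 and 115, and the Dntt start 112 and 146. Between the Rag genes a further DN3-only region, chr2:101636836-101637553, had 125 fragments and a fold of 18.2, with 86 fragments in Scd1-deficient DN3 cells and 27 in Scd1-deficient naive cells. Cd8a, the alpha chain of the CD8 coreceptor, also had a start region in DN3 cells alone, with 76 fragments in the control and 65 in the Scd1-deficient library, although DN3 cells do not carry CD8. Kit, the stem cell factor receptor of early progenitors, had 345 and 374 fragments at its start in DN3 cells, none listed in control naive cells and 23 in Scd1-deficient naive cells. All 6 DN3 regions in and around Kit were absent from the control naive list.

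The naive side had fewer genes of this kind. The Il2 start region, chr3:37125558-37126734, had 71 fragments in control and 59 in Scd1-deficient naive cells and no DN3 region. A separate DN3-only region 2.53 kb from the Il2 start had 131 fragments in control and 107 in Scd1-deficient DN3 cells, so both cell types had open DNA at this gene at different places. The Tnfrsf4 start, chr4:156012946-156014401, had 170 and 127 fragments in naive cells. Ms4a4b, at chr19:11443462-11444231, had 105 and 39, and Dapl1, a gene of naive T cells, 61 and 67. Cd40lg, the CD40 ligand of helper cells, had 130 and 92, with 3 naive-only regions in the control. A weak DN3 region of 22 fragments met its start region in Scd1-deficient mice.

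**Figure D1:**
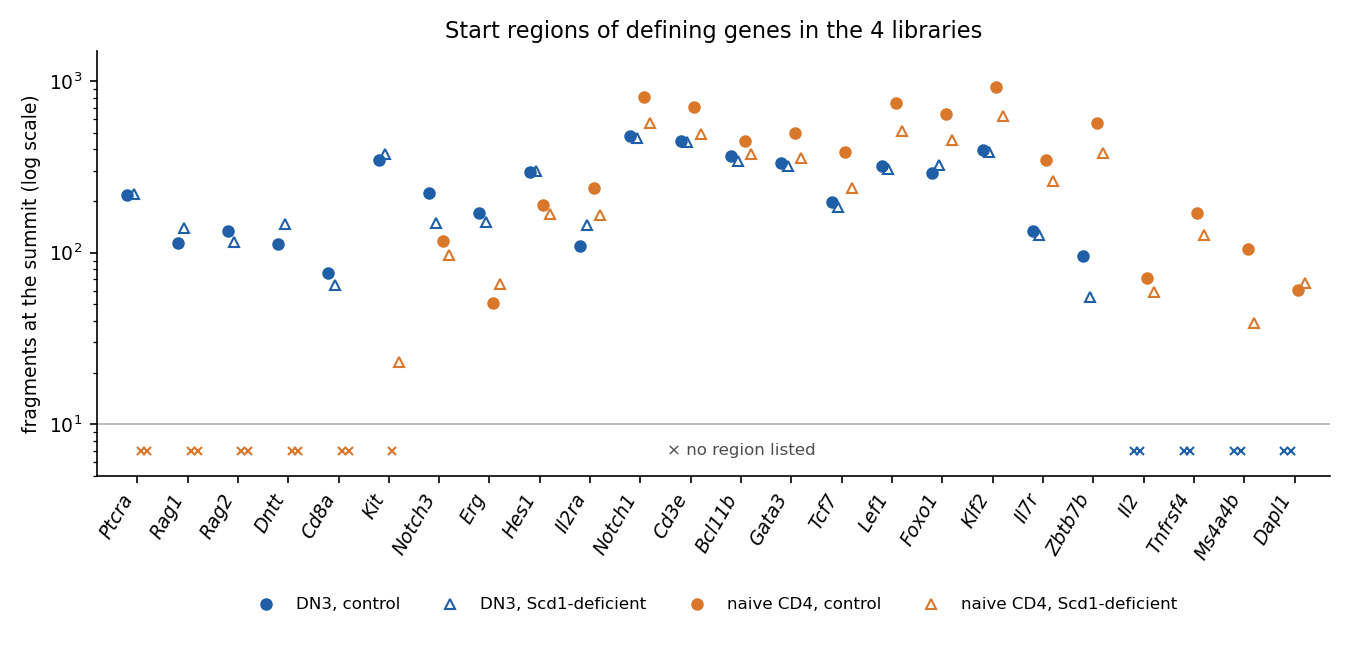
Fragments at the summit of the start region (log scale) for 24 genes in the 4 libraries, with circles for controls, triangles for Scd1-deficient mice, blue for DN3 and orange for naive CD4 cells. Crosses mark libraries with no region listed: naive libraries at Ptcra, Rag1, Rag2, Dntt and Cd8a, the control naive library at Kit, and both DN3 libraries at Il2, Tnfrsf4, Ms4a4b and Dapl1.

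Most genes that define either cell had a start region in both, and strength was then compared after dividing by the library's level. For fold, the log2 ratio of naive to DN3 was taken after division by each list's median and centred on the median matched region, so a positive value is naive above DN3 relative to the other regions. For fragments, each summit was divided by the genome-wide background of its library and centred likewise. Where values for a cell type come in pairs, the control library stands first and the Scd1-deficient library second, and differences are those of the control pair unless stated. Notch3, a Notch receptor, had 224 fragments in control DN3 against 117 in control naive cells, and 149 against 97 in the Scd1-deficient pair. The fragment difference was -1.20, whereas the fold difference was 0.94, so the 2 measures had opposite signs. Hes1, a Notch target, had 294 and 298 fragments in DN3 and 189 and 169 in naive cells (fragment difference -0.91, fold difference 0.11). Erg, an Ets factor of early T cell progenitors, had 171 and 150 in DN3 against 51 and 66 in naive cells (fragment difference -2.00, fold difference -0.25), with 18 DN3-only regions and 1 naive-only region.

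Of other genes known to be active at DN3, Il2ra, Notch1 and Dtx1 had higher values at the naive start. Il2ra encodes CD25, by which the DN3 cells were sorted. It had 109 and 144 fragments in DN3 and 239 and 166 in naive cells, with a fold difference of 0.98, a fragment difference of 0.85 and a counting SE of 0.17. Notch1 had 481 and 468 fragments in DN3 and 809 and 568 in naive cells (fold difference 0.62). Dtx1, a Notch target, had 179 and 161 in DN3 and 443 and 324 in naive cells (0.64). In and around these genes DN3-only regions outnumbered naive-only regions, as they did at 49.2% of all genes. The counts were 4 and 0 at Il2ra, 9 and 1 at Notch1, and 2 and 1 at Dtx1, so start strength and region number went different ways. Lyl1, a factor of early progenitors, had 93 and 279 in DN3 and 87 and 68 in naive cells. Its fold difference was 0.12 in the control pair and -1.50 in the Scd1-deficient pair, and its fragment difference was -0.37, so its 2 DN3 libraries differed more than its control cell types did.

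Cd4 and Zbtb7b had higher values at the naive start, whereas the coreceptor list as a whole leaned to DN3. Of its 16 genes 12 had more DN3-only and 3 more naive-only regions, against 49.2% and 6.29% of all genes. Of its DN3 regions 45.0% were DN3-only, against 40.9% for all genes. That share was 25.8%, beside 37.8% naive-only, with lists of equal number. Among its matched starts 1, that of Ccr9, was at least 2 times higher in DN3 and none in naive cells. Zbtb7b encodes ThPOK, the factor that commits thymocytes to the CD4 lineage. Its start had 95 and 55 fragments in DN3 and 568 and 382 in naive cells, a fragment difference of 2.29 and a fold difference of 0.26. Cd4, for which the reference table used gives no strand, had 154 and 148 fragments in DN3 and 344 and 237 in naive cells at its lower annotated end (0.88 by fragments, 0.69 by fold). At its higher annotated end a naive-only region had 221 fragments, and 179 in Scd1-deficient naive cells. A DN3-only region elsewhere in Cd4 had 79 and 83 fragments. Cd8b1, the CD8 beta chain, had 113 and 135 in DN3 and 283 and 202 in naive cells (fold difference 0.20), although naive CD4 cells do not carry CD8.

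Of 32 genes of homing and rest, 28 had a start region in both cells, 2 (Ms4a4b and Dapl1) in naive cells only and 2 in neither. By fold the matched starts had a median difference of -0.19, and by fragments 0.69, against 0.04 and 0.34 for all genes. The measures thus parted at starts of all genes too, though less. Ccr7, the receptor that guides T cells into lymph nodes, had 381 and 346 fragments in DN3 and 741 and 489 in naive cells. Its fold was 12.7 in control DN3 and 4.93 in control naive cells, and the local background recovered from the lists was 29.0 and 150 fragments. The fold difference was -1.35 in the control and -1.36 in the Scd1-deficient pair, and the fragment difference was 0.68. S1pr1, the receptor by which lymphocytes leave the thymus and lymph nodes, had 119 and 117 against 449 and 337 fragments (fold difference -0.63, fragment difference 1.63), with local backgrounds of 15.4 and 96.0. Klf2, the factor that drives S1pr1, had 395 and 388 against 920 and 627 (-0.68 and 0.94). Il7r, the interleukin 7 receptor, had 133 and 126 against 346 and 262 (-0.48 and 1.10). At these 4 genes a direction from the start region therefore depends on the measure, and why the local background was higher in naive cells was not tested. The reference table used gives no strand for Ccr7 and S1pr1, so their values may come from either annotated end.

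T cell factors and receptor genes were open in both cells. Foxo1, which controls Il7r and Klf2, had 292 and 325 fragments in DN3 and 642 and 454 in naive cells. Tcf7 had 197 and 185 against 386 and 239, Lef1 321 and 306 against 747 and 512, Gata3 335 and 319 against 500 and 355, and Bcl11b 368 and 344 against 445 and 378. At the Foxo1 and Lef1 starts the fold differences were -0.21 and -0.08 and the fragment differences 0.86 and 0.94. The fold and fragment differences were -0.17 and 0.69 at Tcf7, -0.42 and 0.30 at Gata3, and -0.03 and 0.00 at Bcl11b. Over all genes with a start region in both cells the medians were 0.04 and 0.34. The regions around some of these genes differed in number. Lef1 had 14 DN3 regions, 1 of them DN3-only, and 26 naive regions, 14 of them naive-only. Foxo1 had 10 and 19 regions with 1 and 10 in one list only, and Bcl11b 16 and 21 with 5 and 11. Tcf7, with 9 and 8 regions of which 1 and 0 were in one list only, and Gata3, with 8 and 10 of which 1 and 2 were, did not differ in this way. Cd3e had 445 and 442 fragments at its start in DN3 and 708 and 494 in naive cells (fold difference 0.54). Cd3d and Cd3g share a start region with 332 and 364 fragments in DN3 and 435 and 286 in naive cells, a fold difference of -1.06 (-0.35 in the Scd1-deficient pair) and a fragment difference of 0.12. Cd5, which dampens receptor signals, had 132 and 133 against 432 and 309, Cd6 308 and 262 against 302 and 367, and Il6ra, with 4 naive-only and 0 DN3-only regions, 182 and 206 against 496 and 388. Scd1 itself had 124 and 85 in DN3 and 50 and 39 in naive cells (fold difference -0.47, fragment difference -1.57).

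Over the whole genome, 36256 of 76814 DN3 regions, 47.2% (Wilson 95% interval 46.8% to 47.6%, counting error only), had no naive region over them. On the naive side 6967 of 46576, 15.0% (14.6% to 15.3%), had no DN3 region over them. In the Scd1-deficient pair 33125 of 76437 DN3 regions (43.3%) and 8216 of 51297 naive regions stood in one list only. The imbalance went with the unequal lengths of the lists: when both were cut to the same number of strongest regions, 29.6% of DN3 and 30.1% of naive regions stood in one list only. The control DN3 list covered 59.84 Mb with a median width of 666 bp, a median of 69 fragments at the summit and a genome-wide background of 4.72. The control naive list covered 44.93 Mb with 894 bp, 103 fragments and a background of 5.12. Read totals were not used here.

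One-list-only regions were weak. Their median −log10 q was 16.4 against 68.9 for matched regions in DN3 and 14.4 against 68.8 in naive cells, and the median fragments were 41 against 121 and 43 against 125. Of DN3 regions, with the list split into 5 equal parts by −log10 q, 80.3% of the weakest and 7.68% of the strongest had no naive region. Of naive regions the shares were 37.6% and 0.258%. The Scd1-deficient libraries showed the same pattern, present in the same cell type and absent in the other, for 25814 (71.2%) of the DN3-only and 4637 (66.6%) of the naive-only regions. Another 6799 DN3-only and 1438 naive-only regions were not called in the Scd1-deficient library of their own cell type. Those had median −log10 q values of 6.10 and 5.62.

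Gene starts differed least. Among regions at a gene start, 2433 of 13710 in DN3 (17.7%) and 129 of 11311 in naive cells (1.14%) stood in one list only. Inside genes the counts were 18897 of 34982 (54.0%) and 4095 of 19695 (20.8%), and between genes 14926 of 28122 (53.1%) and 2743 of 15570 (17.6%). On the X chromosome the DN3 share was the lowest of the 20 chromosomes, 37.9%, and the naive share the highest, 20.3%.

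**Figure D2:**
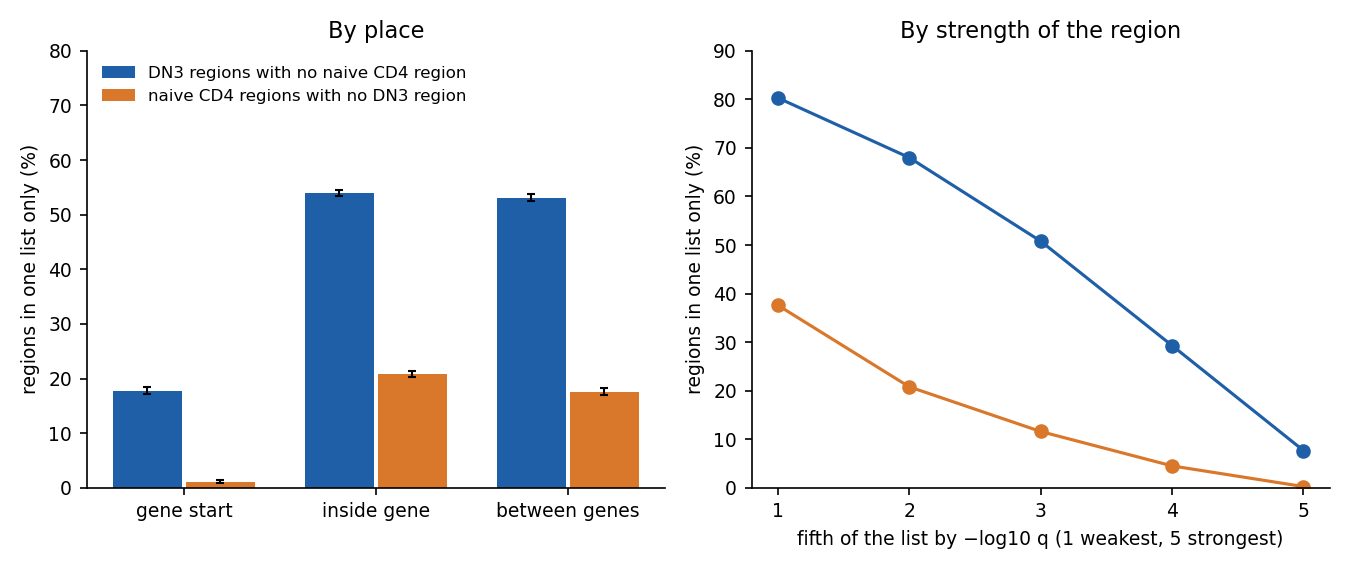
Share of regions in one list only (%), by place (left, with Wilson 95% intervals as error bars) and for 5 equal parts of each list in order of −log10 q (right), in blue for DN3 and orange for naive CD4 regions. The share falls from 80.3% to 7.68% in DN3 and from 37.6% to 0.258% in naive cells from the weakest to the strongest of the 5 parts, and is lowest at gene starts.

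The strongest DN3-only regions, by the rule that asks for the same pattern in Scd1-deficient cells, lay mostly away from gene starts. One lay inside Acot12, a thioesterase (chr13:91753558-91754345), with 412 fragments in control and 390 in Scd1-deficient DN3 cells. Others lay at the start of Clu, the secreted chaperone clusterin (chr14:65968271-65969099, 425 and 368), and inside Micu2, a regulator of the mitochondrial calcium channel (chr14:57971925-57972683, 433 and 424). A region between genes 303 kb from Pik3r1, a regulatory subunit of PI3 kinase, had 398 and 359 fragments (chr13:102070695-102071498). A further 5 were assigned to Nlrp12, Crispld2, Helz, BC034090 and Tle3, a Groucho corepressor, with 385 to 501 fragments in the control. All 4 DN3 regions in and around Clu were DN3-only and no naive region was listed there.

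The strongest naive-only region lay 216 kb from Btg1, an antiproliferative gene of resting lymphocytes, at chr10:96400292-96401486, with 631 fragments in control and 450 in Scd1-deficient naive cells. Others lay inside Pgpep1l (chr7:68249641-68251083, 458 and 311), inside Prex1, an exchange factor for Rac (chr2:166701116-166702390, 574 and 335), and 16.3 kb from Zfp281 (chr1:136608260-136609175, 415 and 285). A region 346 kb from Cog6 had 388 and 230 fragments. The remaining 5 were assigned to Polr1a, Trim5, 4933412E24Rik, Nepro and Ptk2, with 359 to 495 fragments in the control. None of these 10 regions was at a gene start, against 1 of the 10 on the DN3 side.

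Some genes held many one-list-only regions in their body and 10 kb on either side. More DN3-only than naive-only regions were found at 10645 of 21631 protein-coding genes (49.2%), and more naive-only at 1360 (6.29%). Of these, 8669 and 898 leaned the same way in the Scd1-deficient pair. With lists of equal number the counts were 4916 and 4441. On the DN3 side Gse1 had 46 DN3-only and 2 naive-only regions, Hivep3 42 and 2, Prkca, a protein kinase C, 32 and 4, Ephb2, an ephrin receptor, 30 and 0, and Maml3, a Notch coactivator, 30 and 0. Cux1 (30 and 1), Etv6, an Ets repressor (30 and 3), Frmd4a (29 and 0), Arid1b, a subunit of the BAF remodeller (29 and 2), and Zfhx3 (27 and 0) followed. Zfhx3 also had 194 fragments at its start in control DN3 and 22 in control naive cells (fold difference -1.77). Maml2, a related Notch coactivator, leaned to the naive side with 6 DN3-only and 12 naive-only regions.

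Inpp4b, a phosphatase that removes a phosphate from PI(3,4)P2, led the naive side with 39 naive-only regions and 1 DN3-only region. It had 14 regions in control DN3 and 52 in control naive cells, and in the Scd1-deficient pair 41 naive-only and 0 DN3-only. Its start was open in both, with 248 and 208 fragments in DN3 and 405 and 318 in naive cells. The strongest naive-only regions in Inpp4b began at chr8:81558376, chr8:81491085 and chr8:81735229 and had 302, 232 and 208 fragments. A shared region from chr8:81497273 had 356 fragments in naive and 14 in DN3 cells. Ptprc, which encodes CD45, had 0 DN3-only and 14 naive-only regions (13 and 26 in all), and 3 and 11 in the Scd1-deficient pair. Lef1 followed with 1 and 14, and Chd7, a chromatin remodeller, and Rapgef6, an exchange factor for Rap, with 0 and 11 each. Sgms1, a sphingomyelin synthase (3 and 14), Chn2 (1 and 11), Foxp1 (16 and 26) and Prkcq, the protein kinase C of the T cell synapse (0 and 10), came next. Bach2, a repressor that keeps T cells naive, had 10 DN3-only and 19 naive-only regions.

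**Figure D3:**
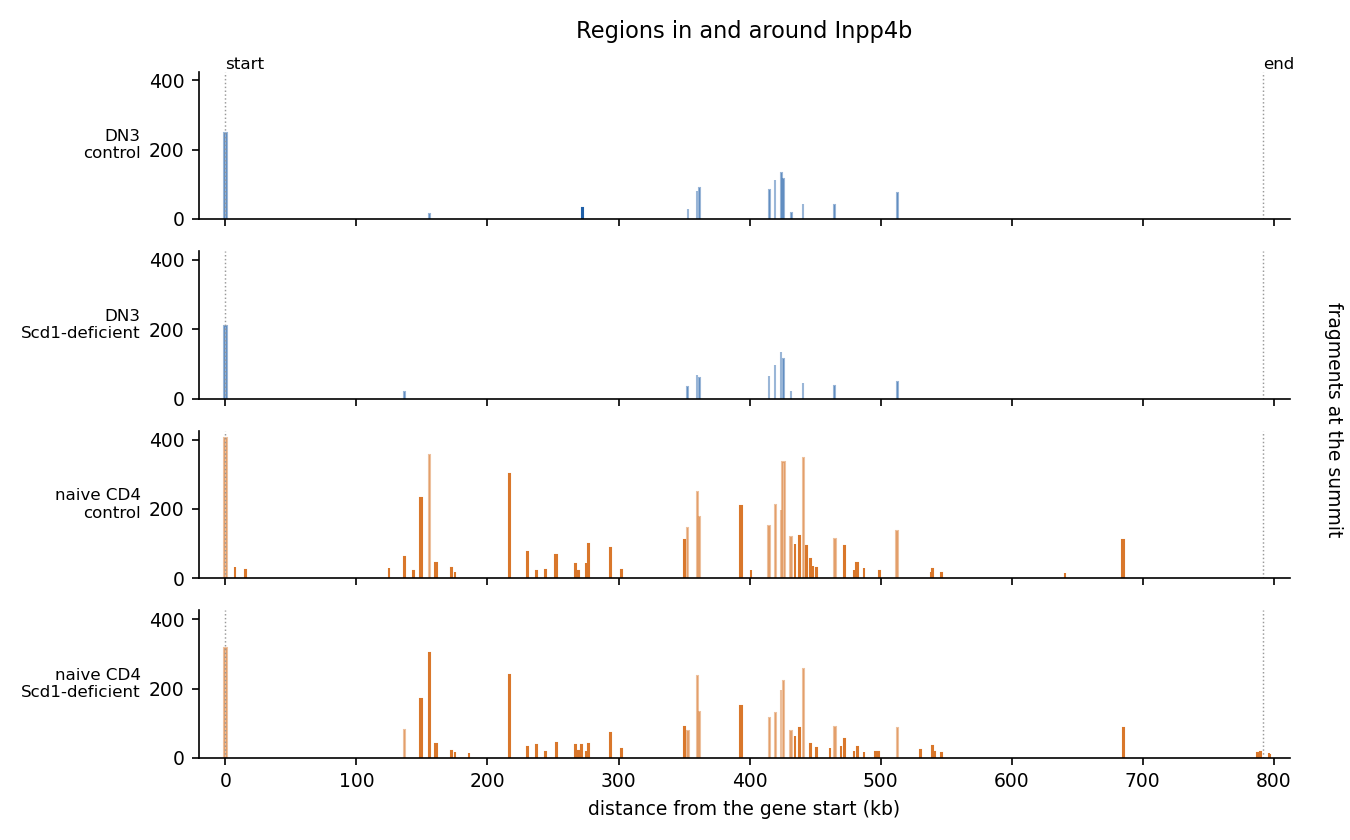
Fragments at the summit of each region in and around Inpp4b by distance from the gene start (kb), in the 4 libraries, with dark bars for regions in one list only and pale bars for regions matched in the other cell type of the same genotype. The control naive library has 52 regions, 39 of them dark, against 14 and 1 in the control DN3 library.

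Some windows of 500 kb, a size chosen after the data were seen, held many regions in one list only outside the genes just named. Of 3947 windows with a region, 3382 (85.7%) held more DN3-only and 303 (7.68%) more naive-only regions. The window of Atg7 and Vgll4 had 64 DN3-only and 3 naive-only regions. On the naive side the Eea1 window had 2 and 24, and the neighbouring Btg1 window 6 and 25. A window without an annotated protein-coding gene, chr17:52000001-52500000, had 1 and 18. Its nearest gene was Kcnh8 at 103 kb.

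At gene starts, 12294 of 21631 genes (56.8%) had a region in both lists and 7126 (32.9%) in neither. A start region in DN3 only was found at 2125 genes (9.82%) and in naive only at 86 (0.398%). The call was the same in the Scd1-deficient pair for 1574 (74.1%) and 51 (59.3%) of them, and opposite for 8 and 2. Leaving out genes whose start region was met by a region of the other list beyond 1 kb left 2088 (9.65%) and 69 (0.319%). Equal list lengths gave 1114 and 387.

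Gene lists were read against all protein-coding genes, for which 40.9% of DN3 and 11.8% of naive regions in and around genes stood in one list only. With lists of equal number these shares were 23.8% and 24.7%, and the naive share then exceeded the DN3 share in 17 of 24 lists, against 3 of 24 with all regions. The lists were chosen with earlier results of these data known, so they describe these libraries and are not independent evidence. Genes of progenitors had the DN3 pattern. Of 139 DN3 regions around the 21 progenitor genes 77 (55.4%) were DN3-only, against 6 of 64 naive regions (9.38%). These shares became 33.8% and 25.0% with lists of equal number. A start region in DN3 only was listed for Meis1, Kit, Lmo2, Cd93, Gata2 and Cd34, of which Meis1 had 10 DN3-only and 0 naive-only regions. Starts in DN3 only made 28.6% of this list, against 9.82% of all genes. Lmo2, a partner of early haematopoietic factors, had 108 fragments at its start in control and 87 in Scd1-deficient DN3 cells. Of the 14 recombination and pre-receptor genes, 5 (35.7%) had a start in DN3 only: Ptcra, Rag1, Rag2, Dntt and Spib, an Ets factor.

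Around 16 genes of gamma-delta and innate-like T cells both shares were above those of all genes. Of 102 DN3 regions 62 (60.8%) were DN3-only, and 18.0% of naive regions were naive-only, against 40.9% and 11.8%. With lists of equal number the shares were 47.5% and 32.0%, against 23.8% and 24.7%. Of these genes 10 leaned to DN3 and 2 to naive cells, against 49.2% and 6.29% of all genes. The matched starts had a median fold difference of -0.01. Zbtb16, the PLZF factor of innate-like T cells, had 19 DN3-only and 0 naive-only regions, and 139 fragments at its start in control DN3 cells. Blk, a Src kinase of gamma-delta and B cells, had 7 and 0 and 197 fragments. Starts of 5830411N06Rik, Klrb1c and Cd163l1 were also listed in DN3 only. Around Notch genes 43.5% of DN3 regions were DN3-only, near the 40.9% of all genes. Heyl, a Notch target, had 5 DN3-only regions, no naive region, and 145 fragments at its start.

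Genes of homing and rest had the naive pattern. Of 323 naive regions around 32 genes 122 (37.8%) were naive-only, and of 281 DN3 regions 66 (23.5%) were DN3-only. More naive-only regions were found at 21 genes and more DN3-only at 7, against 6.29% and 49.2% of all genes. With lists of equal number the shares were 59.4% naive-only and 9.15% DN3-only, against 24.7% and 23.8% for all genes. The matched starts did not follow by fold: 1, that of Ccr7, was at least 2 times higher in DN3 and none in naive cells. The largest fold differences towards naive cells were those of Slfn1 and S1pr4. Slfn1, a Schlafen gene of quiescent T cells, had 23 and 22 fragments at its start in DN3 and 452 and 345 in naive cells, a fold difference of 0.95 and a fragment difference of 3.96. S1pr4, a further sphingosine phosphate receptor, had 161 and 172 against 450 and 301 (fold difference 0.92).

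Genes of the CD3 complex and receptor signalling showed 28.2% naive-only (97 of 344) and 18.2% DN3-only regions (57 of 314). Of these 32 genes 16 leaned to the naive and 5 to the DN3 side, against 6.29% and 49.2% of all genes. At matched starts the median fold difference was -0.21, against 0.04 for all genes. Of these starts 3 (Prkcq, Cd3d and Cd3g) were at least 2 times higher in DN3 and none in naive cells. Prkcq had 244 and 245 fragments at its start in DN3 and 208 and 180 in naive cells (fold difference -1.07), while its 10 one-list-only regions were all naive. T lineage factors had 27.6% naive-only and 30.4% DN3-only regions. The order turned with lists of equal number, to 47.9% and 11.7%. Of these 29 genes 14 leaned to DN3 and 10 to naive cells, against 49.2% and 6.29% of all genes. Of the genes leaning to naive cells, Tox, a factor of CD4 lineage development, had 4 DN3-only and 11 naive-only regions and Ets1 3 and 8. The 8 Gimap genes, small GTPases of lymphocyte survival that lie in 1 cluster and share regions, had 13 of 43 naive regions (30.2%) naive-only and 3 of 36 DN3 regions (8.33%) DN3-only. Gimap6 had 97 and 82 fragments at its start in DN3 and 432 and 280 in naive cells (fold difference -0.79, fragment difference 1.87). Around survival genes 24.1% of naive and 25.6% of DN3 regions stood in one list only (35.7% and 8.75% with lists of equal number), and Bcl2, the antiapoptotic gene, had 4 DN3-only and 12 naive-only regions.

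Of 38 helper and effector genes 19 leaned to DN3 and 8 to naive cells, against 49.2% and 6.29% of all genes. Around them 28.1% of DN3 regions were DN3-only and 14.8% of naive regions naive-only, against 40.9% and 11.8% for all genes. With lists of equal number the helper and effector shares were 15.8% and 32.1%. A start region stood in DN3 only for 2 of these genes (Il12rb1 and Gzmb) and in naive cells only for 3 (Il2, Cd40lg and Tnfrsf4). Of all genes 9.82% and 0.398% had such a start. Ifng, the gene of interferon gamma, had 167 and 141 fragments at its start in DN3 and 30 and 23 in naive cells, a fold difference of -1.51 and -1.59 in the control and Scd1-deficient pairs. Il21, a cytokine of helper cells, had 3 naive-only regions and no DN3 region. Lta, lymphotoxin alpha, had 184 and 168 against 651 and 351 fragments (0.67).

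Among receptors of cytokines and chemokines, Il2rb, the beta chain of the interleukin 2 and 15 receptors, had 122 and 110 fragments at its start in DN3 and 45 and 43 in naive cells (fragment difference -1.69). Ccr9, the receptor for the thymic and gut chemokine Ccl25, had 215 and 183 fragments in DN3 and 70 and 33 in naive cells (fold difference -1.14). It also had a DN3-only region at chr9:123756606-123757658 with 378 fragments. Ackr3, an atypical chemokine receptor, had 4 DN3-only regions, no naive region, and 264 and 249 fragments at its start.

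Around 26 fatty acid synthesis genes, the class to which Scd1 belongs, the shares were near those of all genes, with 39.9% DN3-only and 11.6% naive-only regions. Around 23 cholesterol synthesis genes they were 41.7% and 6.67%, the latter 3 of 45 regions. Acacb, an acetyl-CoA carboxylase, and Me1, malic enzyme, had a start region in DN3 only, with 59 and 62 and with 45 and 35 fragments. Such starts made 7.69% of the fatty acid list, against 9.82% of all genes. Fads2, the delta-6 desaturase, had a start region in both, with 416 and 369 fragments at its start in DN3 and 21 and 30 in naive cells (fold difference -1.08, -0.22 in the Scd1-deficient pair, and fragment difference -4.52), and 4 DN3-only regions. Cell cycle genes had 39.5% DN3-only regions. Both shares were 25.6% and 6.45% for early response genes of the AP-1 group, 27.3% and 17.7% for interferon response genes, and 17.6% and 10.7% for housekeeping genes.

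Markers of other cells were not equal between the lists. Of 18 B cell genes, 10 had a start region in control DN3 and 6 in control naive cells (9 and 8 in the Scd1-deficient libraries), with summed start fragments of 1023 and 417 (889 and 422). The defining genes Ms4a1, Ciita, Vpreb1 and Igll1 had no start region in any library. Pax5 and Ebf1, B cell factors, had 10 DN3-only and 0 naive-only, and 12 and 1, regions. Of 14 stromal and epithelial genes 8 and 4 had a start region (8 and 6), with 1150 and 675 fragments (1064 and 707), and Krt5, Foxn1, Psmb11 and Pecam1 had none in any library. Myeloid genes had 9 and 8 of 21 starts (10 and 8) with 1345 and 1294 fragments (1345 and 1122). NK cell genes had 8 and 7 of 13 (8 and 7) with 1282 and 1443 (1238 and 1091). Erythroid genes had 6 and 4 of 12 (5 and 4) with 1015 and 897 (921 and 771). A start region in control DN3 only was listed for 22.2% of B cell, 28.6% of stromal and epithelial and 16.7% of erythroid genes. For myeloid and NK cell genes that share was 9.52% and 7.69%. Of all genes 56.8% had a start region in both control lists, 9.82% in DN3 only and 0.398% in naive only. Adgre1, Mpo, Ncr1 and Klrk1 had no start region in any library. Apart from these values, the part of other cells in the results was not tested.

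**Figure D4:**
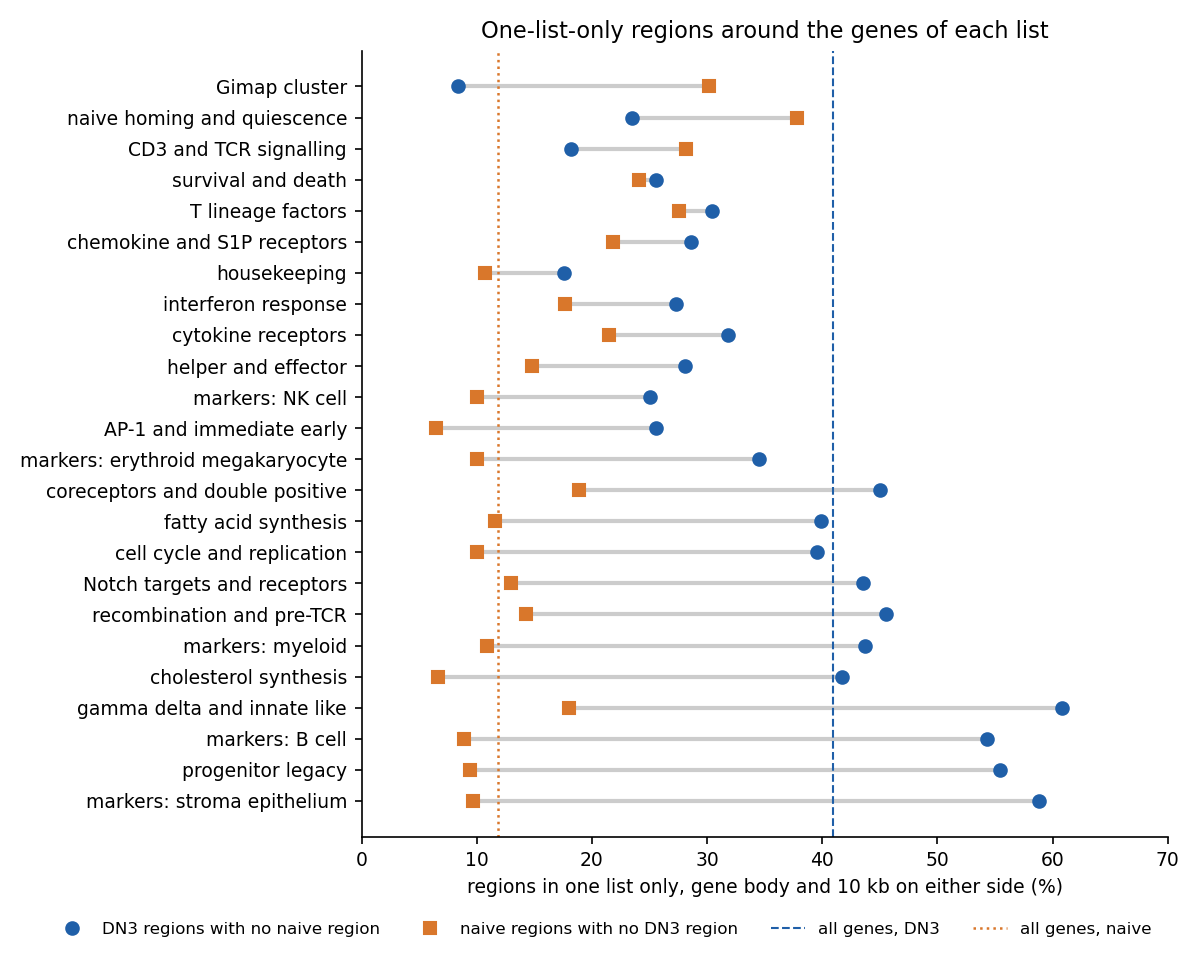
Share of regions in one list only (%) in the gene body and 10 kb on either side for 24 gene lists, with blue circles for DN3 and orange squares for naive CD4 regions and lines for all protein-coding genes (40.9% and 11.8%). In 3 lists, the Gimap cluster, naive homing and quiescence, and CD3 and TCR signalling, the naive share lies above the DN3 share.

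The T cell receptor loci differed in opposite directions between the cells. They were taken up after earlier values had been seen. At the gamma locus, chr13:19178042-19356476, there were 26 regions in control DN3 cells, 22 of them DN3-only, and 3 in control naive cells, none naive-only. The Scd1-deficient pair had 26 (21 DN3-only) and 4. The stretch with the D and J segments and constant gene of delta, chr14:54113468-54146108, had 6 DN3 regions of 27 to 80 fragments and 2 naive regions of 20 to 22. In the Scd1-deficient pair it had 4 and 1.

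The alpha J stretch, chr14:54155005-54218842, holds 60 J segments over 63.8 kb and showed the reverse. Control DN3 cells had 4 regions there with 18 to 57 fragments, 1 of them DN3-only, and control naive cells 14 with 45 to 245 fragments, 11 of them naive-only. The Scd1-deficient pair had 5 and 11. The median local background of the regions was 6.04 in DN3 and 37.0 in naive cells. From the alpha constant gene to 10 kb beyond it, where the alpha enhancer is known to lie, there were 2 DN3 and 4 naive regions. The strongest, chr14:54226880-54228417, was shared, with 502 fragments in DN3 and 1109 in naive cells (545 and 694 in the Scd1-deficient pair). By fold it went the other way, 8.43 in DN3 and 4.92 in naive cells, with local backgrounds of 58.7 and 225 fragments. A naive-only region in the constant gene, chr14:54221876-54222955, had 470. At the beta D, J and constant genes there were 5 DN3 and 3 naive regions, none in one list only. Rearrangement removes DNA at these loci, so fewer copies and less access cannot be told apart there.

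**Figure D5:**
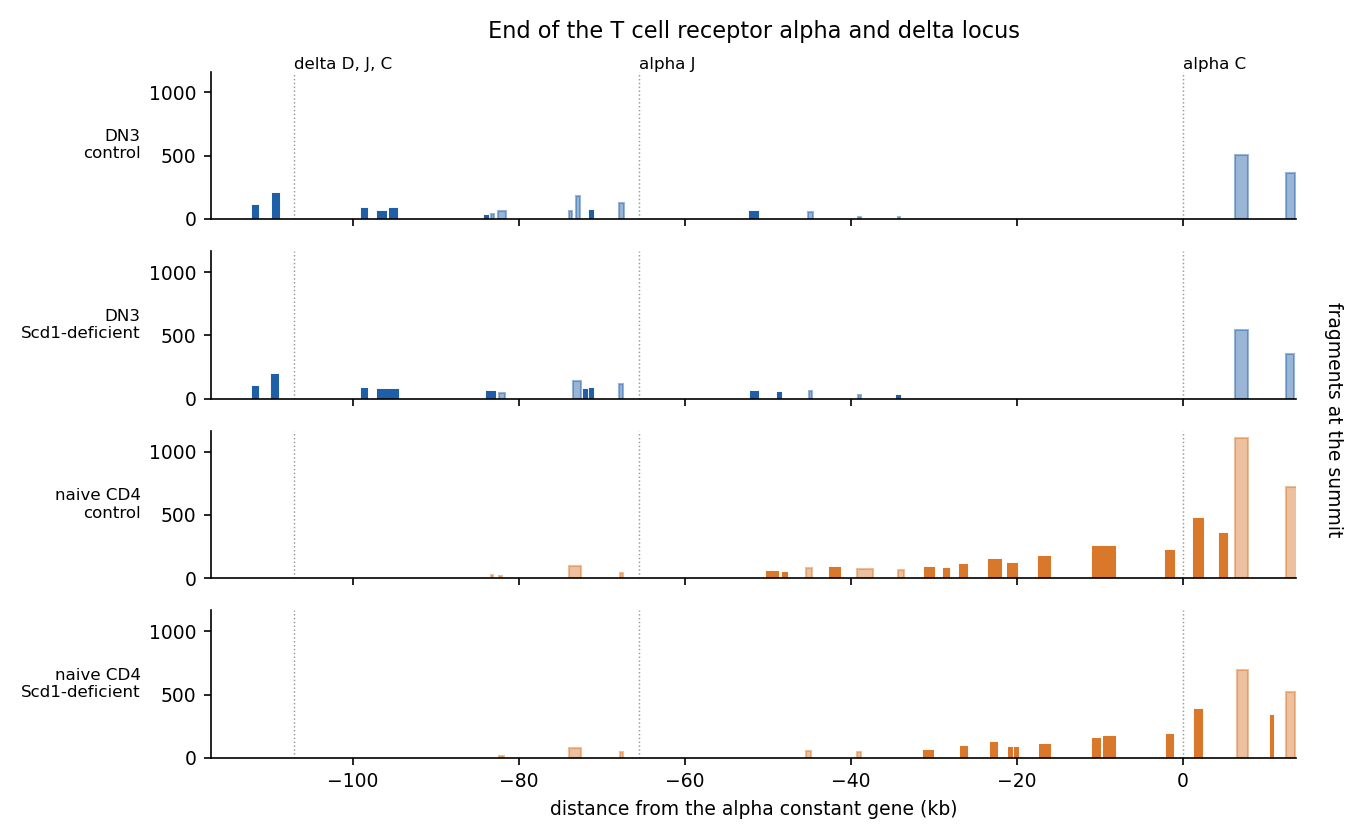
Fragments at the summit of each region by distance from the alpha constant gene (kb) at the end of the T cell receptor alpha and delta locus, in the 4 libraries, with dark bars for regions in one list only. The alpha J stretch has 14 control naive regions against 4 control DN3 regions, and the tallest bar, beyond the constant gene, reaches 502 fragments in control DN3 and 1109 in control naive cells, while its fold was higher in DN3 (8.43 against 4.92).

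Matched regions made 39470 joint regions. Before centring, the median log2 of naive over DN3 fold was -0.20 (SD 0.55 over regions). After centring, 2224 joint regions (5.63%) were at least 2 times higher in DN3 and 1213 (3.07%) at least 2 times higher in naive cells. Without centring the counts were 3473 and 690, and by fragments 7532 and 3322. At gene starts 228 (2.05%) and 72 (0.647%) passed, inside genes 1091 (7.02%) and 593 (3.82%), and between genes 905 (7.07%) and 548 (4.28%). Gene starts had a median of 318 fragments in DN3 and 477 in naive cells, with median local backgrounds of 27.6 and 40.4. Their median difference was 0.03 by fold and 0.32 by fragments.

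Of the joint regions called in all 4 libraries, 1871 of 1899 (98.5%) of those 2 times higher in control DN3 cells were on the DN3 side in the Scd1-deficient pair, and 903 (47.6%) passed 2 times there. On the naive side 1022 of 1032 (99.0%) kept their side and 637 (61.7%) passed 2 times. Over 37436 such regions, which are not independent replicates, the fold differences of the pairs had a Pearson correlation of 0.82, given as a description.

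Matched gene starts with the largest fold difference towards DN3 had a weak naive region. Slc2a12, a glucose transporter, had 156 and 127 fragments in DN3 and 20 and 25 in naive cells (-2.19). Slc13a5, a citrate transporter, had 207 and 162 against 19 and 19 (-2.10), and Asns, asparagine synthetase, 89 and 97 against 20 and 27 (-1.98). Gm1673 led with -2.20 but had -0.80 in the Scd1-deficient pair. Olfr312, Reps2, Zfp976, Cstdc2, Syt13 and Steap1 lay between -2.08 and -1.99, of which Cstdc2 had -0.56 in the Scd1-deficient pair. Towards naive cells, Actrt3 had 143 and 161 fragments in DN3 and 1065 and 811 in naive cells (2.12). Pdlim2, a ubiquitin ligase for NF-kappa B, had 96 and 101 against 495 and 312 (1.98), and Upb1, an enzyme of pyrimidine breakdown, 18 and 22 against 122 and 85 (2.20). Scn2b, Ctla2b and Naxd had 1.92, 1.84 and 1.79. Bhmg1 (2.87), H3c14 (2.03), Slc16a13 (1.91) and Apba3 (2.06) were not alike in the 2 pairs: the first 2 had a start region in DN3 only in Scd1-deficient mice, the third in naive only, and Apba3 had a difference of -0.11 there. In and around the gene, both genotypes had 2 naive regions at Bhmg1, 3 naive regions at H3c14 and 5 DN3 regions at Slc16a13. The strongest region within 1 kb was taken in each library by itself, so a shifted region was not told apart from a lost one.

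The promoters of genes open in one cell only were poorer in CpG than those open in both. The median promoter had 61.0% GC and 21 CpG where the start was listed in both, 58.7% and 13 in DN3 only (1986 promoters of 1573 genes), 50.3% and 4 in naive only (78 promoters of 63 genes), and 46.7% and 3 in neither. GGGCGG was found in 63.4% of promoters open in both, 49.2% in DN3 only and 28.2% in naive only, against 46.7% of all. CAGCTG was found in 14.9%, 19.2% and 29.5%, and GGAAGT in 27.7%, 16.7% and 32.1%. CACCTG, the other E-box form, was found in 18.3%, 23.9% and 11.5%. The shown sequences range in GC from 35.7% at Ms4a4b to 61.7% at Ptcra, and in CpG from 0 at Ms4a4b to 6 at Tnfrsf4. Base composition differs between these sets, and its part in the motif shares was not tested. With 78 promoters the naive-only shares rest on few matches.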

How the data were processed

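Peak lists of 4 ATAC-seq libraries of untreated primary mouse cells were used, 1 library per group, with groups taken from the labels for genotype and cell type. The submitters' processing notes name Trimmomatic, BWA, MACS2 and the build mm10. Not given in the sources used here are their versions and settings, the treatment of duplicates and any Tn5 shift. In the lists deposited by the authors each peak has a score, a fold (the ratio of fragments at the summit to local background, each plus 1), a −log10 p, a −log10 q and a summit position, called per sample. The highest q was 0.049 in control DN3 and 0.048 in control naive cells. The deposited −log10 q grows with depth and the deposited fold depends on the local background of its own library. Differences and matched calls by either were therefore taken after division by list medians. Undivided values are also printed, as for fold at Ccr7 and beyond the alpha constant gene and for −log10 q at Gzmb.

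Fragments at the summit and the local background were recovered from fold and −log10 p as whole numbers, within 0.05, for 100% of peaks. The Y chromosome, with 14 control DN3 and 9 control naive peaks, was left out. Overlapping regions were merged into joint regions, and the strongest region of each list was compared. The fragment difference used (fragments + 1) over (genome-wide background + 1), centred on the matched regions. Counting SEs and Wilson 95% intervals cover counting error only, since PCR duplicates may remain. With 1 library per group no p-value was computed.

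Genes were the 21631 protein-coding genes of RefSeq GRCm38.p6. Starts came from its promoter table for 17274 and from either annotated end for 4357, among them Hes1, Cd4, Cd8b1, Ccr7, S1pr1, Cd6 and Scd1. Of several regions near a start or end, the one with the highest fold was taken in each library by itself. A gene's regions lay in its body or 10 kb on either side.

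Named were, per direction, the 10 one-list-only regions of at least 500 bp with the highest −log10 q and the same pattern in Scd1-deficient cells, the 10 genes with the largest difference in one-list-only regions, the 10 matched starts with the largest fold difference, up to 5 members per list, and markers of the cells. Some items named by this rule are not reported here. The members and lists were chosen with earlier results of these data known. Receptor loci, windows, the fragment measure, the uncentred difference, the start region without counterpart, and Maml2, Tox, Ets1, Bcl2 and Il21 as examples were chosen after values were seen. On simulated data the steps for one-list-only regions, matched regions, overlaps, recovered fragments and gene starts were tested. The step for gene lists was not. Python 3.11.15, pandas 2.3.3, numpy 2.4.6, scipy 1.17.1 and matplotlib 3.10.9 were used. Alternatives were a −log10 q of at least 10, a width of at least 500 bp, an overlap of 50% of the shorter region, lists of equal number, another start rule, another flank, −log10 q in place of fold, and the Scd1-deficient pair beside.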

Additional observations from a re-analysis of the deposited data

Results flagged for a closer look

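Gzmb, the gene of granzyme B, had a start region in DN3 alone in the control pair, with a −log10 q of 8.38, and in naive cells alone in the Scd1-deficient pair, with 9.75. The cell types thus pointed opposite ways in the 2 genotypes, on 24 fragments in control DN3 and 23 in Scd1-deficient naive cells. The difference was not tested.

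Outside the compared chromosomes, the Y chromosome held 14 peaks in the control DN3 list and 9 in the control naive list, with 13 and 12 in the Scd1-deficient lists.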

How the results depend on the processing

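Values depended most on the length of the lists and on the measure of strength. With a −log10 q of at least 10, 43.7% of DN3 regions stood in one list only, and 1098 and 615 matched regions were at least 2 times higher in DN3 and in naive cells. With lists of equal number, the one-list-only shares were 29.6% (DN3) and 30.1% (naive), the matched naive count 266, the start-only counts 1114 (DN3) and 387 (naive), and 4916 and 4441 genes held more DN3-only and more naive-only regions. With regions of at least 500 bp the shares were 33.8% and 10.6%, and with an overlap of 50% of the shorter region 47.7% and 15.5%. With summits within 1 kb of a start, 182 genes had a naive start only. In place of fold, −log10 q gave 9645 and 4827 matched calls and summit fragments 7532 and 3322. Without centring there were 3473 and 690. Of 94 matched starts of named genes, 34 had the other sign by fragments, 24 by −log10 q and 1 of 83 with lists of equal number. Among the 33 starts at least 2 times apart by fold, only fragments gave another sign, at 4: 0.68 at Ccr7, 0.12 at Cd3d and at Cd3g, and 0.02 at Gimap4. The cause of the shifts was not tested. With lists of equal number, 23 of 24 gene lists stayed on their side of all genes for DN3-only and 20 for naive-only shares. No paired analysis was possible because each group has 1 library and no result comes from a test. Depth is unknown beyond the recovered fragments, so a missing weak region may lie under the calling threshold.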
